A study of Mus musculus with 5 samples.

Results

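The amino acid catabolism enzymes described here are 37 mouse genes whose products break down serine, histidine, tyrosine, tryptophan, lysine, the branched-chain amino acids, proline and methionine, together with transaminases, ethanolamine-phosphate phospho-lyase and dihydropyrimidinase. They were taken by gene symbol from a table of 33589 rows, and each of the 37 matched exactly 1 row. The study sequenced RNA of mouse liver in 5 libraries. Controls were 2 livers labelled Hegfl/fl, in which the gene of the endothelial receptor HEG1 is flanked by loxP sites and no Cre is named. Knockouts were 3 livers labelled Lyve1-Cre;Hegfl/fl, which carry the same floxed gene together with a Cre driven by Lyve1, a gene of lymphatic and liver sinusoidal endothelium. All 5 came from male mice aged 6 weeks when a high-fat diet of 4 weeks was given, so the diet and the floxed gene are shared by both groups and no liver on ordinary chow enters. The enzymes are made chiefly in hepatocytes, which are not the cells in which Lyve1 is known to drive Cre. The series design names hepatocytes whereas the sample labels name liver, and the values are treated as those of whole liver.

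Liver is the main site at which surplus amino acids are degraded. Transaminases and dehydratases remove the amino group, which leaves as urea, and the carbon skeletons feed glucose production, ketogenesis or the citric acid cycle. Several of these enzymes, above all serine dehydratase, tyrosine aminotransferase and tryptophan dioxygenase, are textbook targets of glucagon and glucocorticoids, and many are enriched in periportal hepatocytes. The methionine enzymes differ in that they form a cycle, which makes the methyl donor S-adenosylmethionine, uses it and regenerates methionine from homocysteine.

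None of the 37 enzymes passed the test between genotypes across all genes, and the differences seen were small beside the spread between livers for most of them. Expression is given as FPKM, that is fragments corrected for transcript length and for the size of the library, and the test was limma on log2(FPKM + 1), so every log2 fold change below is on that scale and is knockout minus control. All 37 had a mean of at least 1 FPKM and were among the 10820 genes tested. With limma and Benjamini-Hochberg adjustment over all of these, 0 genes passed (0% of those tested), 757 had an unadjusted p under 0.05, and the smallest adjusted p among the enzymes was 0.689, for Etnppl. At an unadjusted limma p under 0.05 there were 3 enzymes, Etnppl, Gpt and Dpys, all lower in knockouts, against 1.71% of all genes lower and 5.29% higher at that level. In bulk liver, fewer cells of a type and less RNA per cell cannot be told apart.

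By direction, 26 enzymes were lower and 11 higher in knockouts, with a median log2 fold change of -0.06, beside 0.06 over all genes tested. For 7 enzymes every knockout liver lay below both controls, 18.9% of the 37, where 6.38% of all genes did so. For 1 enzyme, Kmo, every knockout lay above both controls, where 18.9% of all genes did so. The enzymes are abundant transcripts, however, and abundant genes as a whole lay lower. Among the 839 genes with a mean of at least 100 FPKM, a subset chosen after the values were seen, the median was -0.05, 64.4% were lower, 16.9% were lower without overlap and 6.67% were higher without overlap. Of the enzymes 27 reach that level, with a median of -0.10, 20 lower and 4 lower without overlap. Among these 27 the share lower without overlap was thus near that of abundant genes. The other 3 enzymes lower without overlap, Etnppl, Bckdhb and Mccc2, had means under 100 FPKM, so abundant genes are no background for them. The cumulative plot shows the fold changes of all 37.

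**Figure D1:**
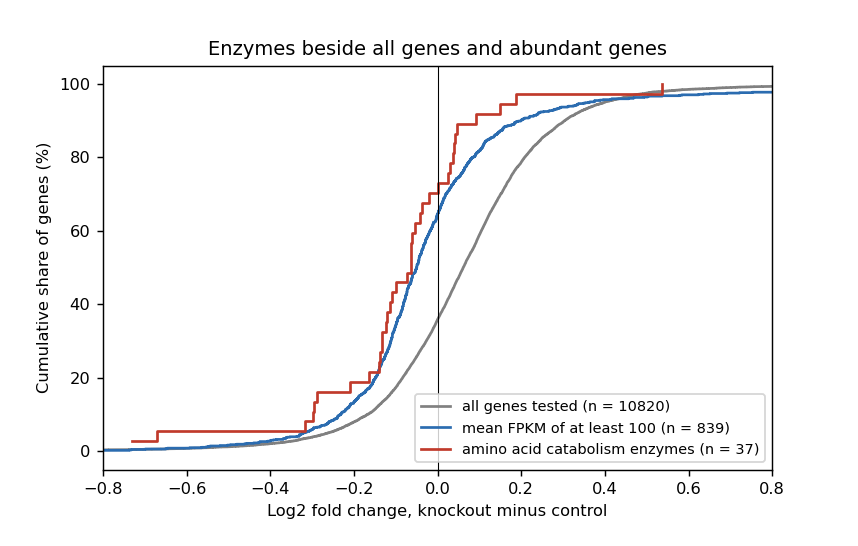
Cumulative share of genes (vertical axis, percent) at or below each log2 fold change, knockout minus control (horizontal axis), for all 10820 genes tested (grey), the 839 genes with a mean of at least 100 FPKM (blue) and the 37 amino acid catabolism enzymes (red). The red line runs close to the blue one and to the left of the grey one below 0; the axis is cut at 0.8 in both directions.

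The counts depended on scaling and on single livers. With median-of-ratios scaling 15 enzymes were lower and 0 higher without overlap, against 13.1% of all genes lower and 11% higher. Leaving out 1 liver makes separation easier for every gene. When control 1 was left out 17 enzymes were lower without overlap (19.5% of all genes), and when control 2 was, 11 (15.3%). Omission of knockout 1 gave 12 (12.1%), of knockout 2 gave 15 (10.3%) and of knockout 3 gave 7 (11.5%). Higher without overlap were 3 enzymes when knockout 2 or knockout 3 was omitted (27.6% and 25.8% of all genes) and 2 when control 2 was (37.4%). The median log2 fold change was -0.12 without control 1 and -0.01 without control 2. The difference between genotypes exceeded both the range of the 3 knockouts and the gap of the 2 controls, in log2 units, for 7 of the 37 enzymes, and the 95% interval included 0 for 34.

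**Figure D2:**
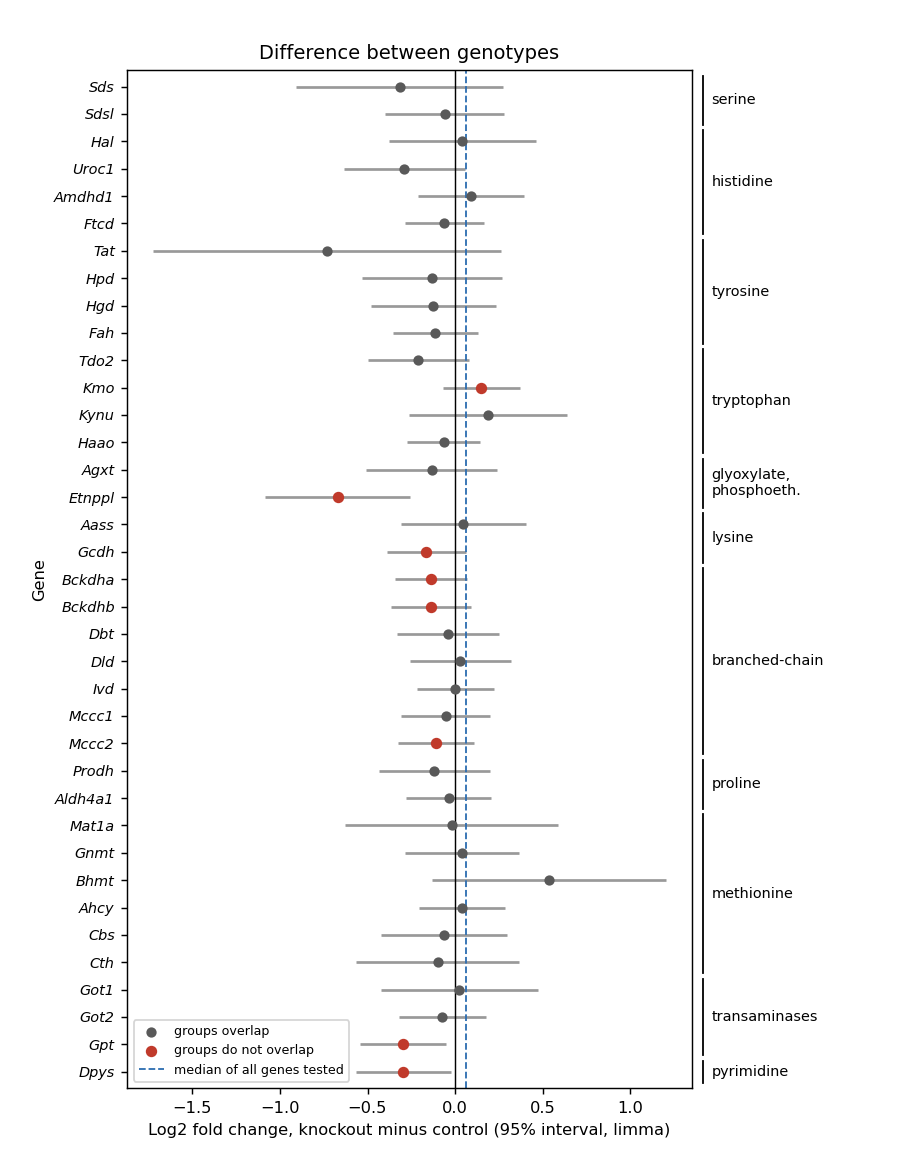
Log2 fold change of each enzyme, knockout minus control (horizontal axis), with its 95% interval from limma, grouped by pathway. Red points mark the 8 enzymes whose groups do not overlap; only the intervals of Etnppl, Gpt and Dpys lie wholly on 1 side of 0. The dashed line is the median of all genes tested, 0.06.

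The targeted gene and the libraries were checked. Heg1 (chromosome 16, 33684370 to 33771576, plus strand) had 0.48 and 0.35 FPKM in the control livers, against 0.45, 0.43 and 0.50 FPKM in the knockout livers, so that whole-liver values do not separate the genotypes; the labels do not say which exons are floxed. Lyve1 had 7.34 and 8.92 FPKM in control livers and from 3.90 to 10.5 FPKM in knockout livers. The 5 libraries had between 10614 and 10945 genes at 1 FPKM or more, and their read depth is unknown. Defining hepatocyte genes such as Alb and Apoa1 were abundant in all 5 livers. Of the markers of fat 4 of 5, and of exocrine pancreas 5 of 7, were listed at 0 in every liver, while the pancreas list summed to 43.0 to 65.7 FPKM, nearly all of it Cela1. Erythrocyte transcripts set knockout 1 apart, the summed list being 1329 FPKM there and 136 to 244 FPKM in the others. The summed list of Kupffer cell and macrophage markers was lowest in control 1 at 207.6 FPKM and lay between 281 and 361 FPKM in the others. Of these markers 10 of 10 were higher in knockouts on average, where 64.2% of all genes were. Higher without overlap were 0, where 18.9% of all genes were. Their part in the results below was not tested.

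Etnppl had the smallest p of the enzymes. It encodes ethanolamine-phosphate phospho-lyase, which degrades phosphoethanolamine and belongs to the same family of pyridoxal-phosphate enzymes as the aminotransferases. The gene lies on chromosome 3 at 130617448 to 130637521, plus strand (ENSMUSG00000019232.14). Etnppl stood at 35.5 and 43.4 FPKM in the controls, while the knockouts had 22.8, 29.8 and 21.1 FPKM. All 3 knockouts lay below both controls, with knockout 2 nearest to them. The knockout mean was 37.8% lower, and the log2 fold change came to -0.67 (SE 0.17, 95% interval from -1.08 up to -0.26), with an unadjusted limma p of 0.00684 and an adjusted p of 0.689. With any 1 liver left out the log2 fold change of Etnppl lay between -0.81 and -0.53. Its negative sign there follows from the lack of overlap. Agxt, the peroxisomal alanine-glyoxylate aminotransferase, had 216 and 168 FPKM in the pair of controls and 196, 151 and 176 FPKM across the knockouts, and its groups overlapped.

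Upstream sequence is shown for the enzymes whose groups do not overlap and for which at least 100 bases directly before the transcript start lie outside annotated exons, to let a reader compare the start region of Etnppl with those of the mitochondrial enzymes Gcdh, Bckdhb and Mccc2. RefSeq promoters (GRCm38.p6) were found for 29 of the 37 enzymes; Sds, Sdsl, Kynu, Dbt, Mat1a, Cth, Gpt and Dpys had no entry. The windows are chr3:130617198-130617447 on the plus strand for Etnppl, chr8:84893922-84894171 on the minus strand for Gcdh, chr9:83925023-83925136 on the plus strand for Bckdhb and chr13:100015640-100015889 on the minus strand for Mccc2. Each runs 5′ to 3′ and ends at the base before the start, over 250 bases or, for Bckdhb, a shorter stretch. Capitals mark matches, on either strand, to any of the 8 motifs searched, which were the TATA box (TATAAA), the CCAAT box (CCAAT), the cAMP response element (TGACGTCA) and its part TGACG, the palindromic glucocorticoid response element, an HNF4A motif (CAAAGTCCA), a C/EBP-like motif (TTGCNNAA) and the GC box (GGGCGG).
Etnppl: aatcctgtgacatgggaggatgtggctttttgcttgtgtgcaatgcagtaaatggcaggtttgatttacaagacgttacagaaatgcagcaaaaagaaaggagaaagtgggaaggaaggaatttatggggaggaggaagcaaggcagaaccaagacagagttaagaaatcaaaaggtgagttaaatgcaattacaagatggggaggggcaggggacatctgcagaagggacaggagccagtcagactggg
Gcdh: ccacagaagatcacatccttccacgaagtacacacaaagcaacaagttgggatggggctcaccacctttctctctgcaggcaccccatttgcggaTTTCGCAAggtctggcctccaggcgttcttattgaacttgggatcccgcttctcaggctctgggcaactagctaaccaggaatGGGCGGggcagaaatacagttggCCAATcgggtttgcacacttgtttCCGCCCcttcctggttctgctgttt
Bckdhb: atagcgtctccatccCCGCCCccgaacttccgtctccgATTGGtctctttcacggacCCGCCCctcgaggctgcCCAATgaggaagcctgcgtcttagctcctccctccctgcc
Mccc2: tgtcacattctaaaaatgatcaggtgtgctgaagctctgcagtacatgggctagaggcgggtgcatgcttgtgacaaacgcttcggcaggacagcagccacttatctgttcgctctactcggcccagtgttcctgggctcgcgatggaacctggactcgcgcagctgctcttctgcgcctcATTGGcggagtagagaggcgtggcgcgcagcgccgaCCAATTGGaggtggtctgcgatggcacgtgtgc

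The Etnppl window held none of the 8 motifs and 1 CG dinucleotide, where the median over 32851 RefSeq promoters was 6. The Mccc2 window held 18 CG dinucleotides and 3 CCAAT matches, starting 69, 33 and 30 bases before the start, of which the last 2 overlap. Gcdh had 8 CG dinucleotides, a CCAAT match at 49 bases, GGGCGG at 72 and 25 bases and TTGCNNAA at 155 bases. In the shorter Bckdhb window there were 9 CG dinucleotides, CCAAT at 76 and 40 bases and GGGCGG at 99 and 57 bases. CCAAT was thus present in 3 of the 4 windows, while 33.8% of all promoters hold it within 250 bases and 20.6% within the length of the Bckdhb window. GGGCGG is held by 32.7% and 26% of promoters, and TTGCNNAA by 9.56% within 250 bases. These matches describe letters in these windows only.

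The branched-chain enzymes gave small differences, in which 3 of 7 were lower without overlap (6.38% of all genes and 16.9% of those with at least 100 FPKM were) and 0 reached an unadjusted p under 0.05. Their median log2 fold change was -0.05, and of the 7 only Bckdha and Ivd had a mean of at least 100 FPKM. Bckdha and Bckdhb encode the alpha and beta subunits of the decarboxylase of the branched-chain ketoacid dehydrogenase complex, the committed step of leucine, isoleucine and valine breakdown. Bckdha stood at 155 and 152 FPKM in the control livers, against 143, 138 and 137 FPKM in the knockout livers. Bckdhb stood at 54.4 and 56.7 FPKM in the controls, while the knockouts had 48.1, 53.2 and 49.7 FPKM. Neither gene's groups overlapped, and the log2 fold changes were -0.14 for each (SE 0.085 and 0.095, limma adjusted p 0.762 and 0.776). Exons of Bckdha overlap those of B3gnt8 on the other strand, and the sources used here do not say whether reads were counted by strand.

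The other subunits of the complex did not share that order. Dbt, the acyltransferase core, had 27.6 and 32.5 FPKM in the pair of controls and 28.8, 27.0 and 31.7 FPKM across the knockouts. Dld, the dehydrogenase shared with the pyruvate and oxoglutarate complexes, had 44.2 and 50.3 FPKM in the control livers, against 52.4, 43.4 and 49.0 FPKM in the knockout livers. Within each liver Bckdha exceeded Bckdhb by 2.60 to 2.97 times, with means of 2.76 in controls and 2.78 in knockouts, and exceeded Dbt by 4.32 to 5.61 times.

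Downstream in leucine breakdown, Mccc2, the beta subunit of methylcrotonyl-CoA carboxylase, stood at 36.4 and 37.5 FPKM in the controls, while the knockouts had 34.9, 33.2 and 34.4 FPKM. The groups did not overlap, although the mean was lower by a log2 value of only -0.11 (SE 0.091). Its partner subunit Mccc1 ranged from 20.8 to 24.3 FPKM, and Ivd, isovaleryl-CoA dehydrogenase, from 100.8 to 110.2 FPKM, with overlapping groups. Ivd had the log2 fold change nearest to 0 of all 37 enzymes, 0.002 (95% interval -0.22 to 0.22).

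Of the lysine enzymes, Gcdh was lower without overlap. It encodes glutaryl-CoA dehydrogenase, a mitochondrial step that lysine and tryptophan breakdown share. Gcdh stood at 284 and 316 FPKM in the pair of controls and 272, 272 and 258 FPKM across the knockouts, a log2 fold change of -0.16 (SE 0.093, limma adjusted p = 0.739). The knockouts lay close together and below both controls. Aass, which opens the main pathway of lysine breakdown, had 99.7 and 93.95 FPKM in the control livers, against 89.5, 121 and 92.2 FPKM in the knockout livers, with knockout 2 highest.

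Gpt and Dpys were the remaining enzymes with an unadjusted limma p under 0.05. Gpt, which encodes the cytosolic alanine aminotransferase (chromosome 15, 76695716 to 76699686, plus strand), had 269 and 310 FPKM in the controls, while the knockouts had 244, 226 and 234 FPKM. Every knockout lay below both controls, and the log2 fold change came to -0.30 (SE 0.10, 95% interval from -0.54 up to -0.05, unadjusted p 0.0238, adjusted p 0.700). Dpys encodes dihydropyrimidinase, an enzyme of uracil and thymine breakdown rather than of amino acids, and lies on the same chromosome at 39768487 to 39857470, minus strand. It had 160.2 and 159.9 FPKM in the pair of controls and 115.5, 139 and 137 FPKM across the knockouts. The controls were nearly equal and knockout 1 was lowest, and the log2 fold change came to -0.30 (SE 0.11, 95% interval from -0.57 up to -0.03, unadjusted p 0.0364, adjusted p 0.700). Without knockout 1 the Dpys value was -0.21.

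Got1 and Got2, the cytosolic and mitochondrial aspartate aminotransferases, had overlapping groups. Got1 had 169 and 201 FPKM in the control livers, against 178, 237 and 157 FPKM in the knockout livers, and Got2 257 and 235 FPKM in the controls, while the knockouts had 248, 215 and 239 FPKM. Knockout 2 was thus the highest of the 5 livers for the cytosolic enzyme and the lowest for the mitochondrial one. The ratio of Got2 to Got1 was 0.908 in knockout 2 and between 1.17 and 1.52 in the other 4 livers.

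**Figure D3:**
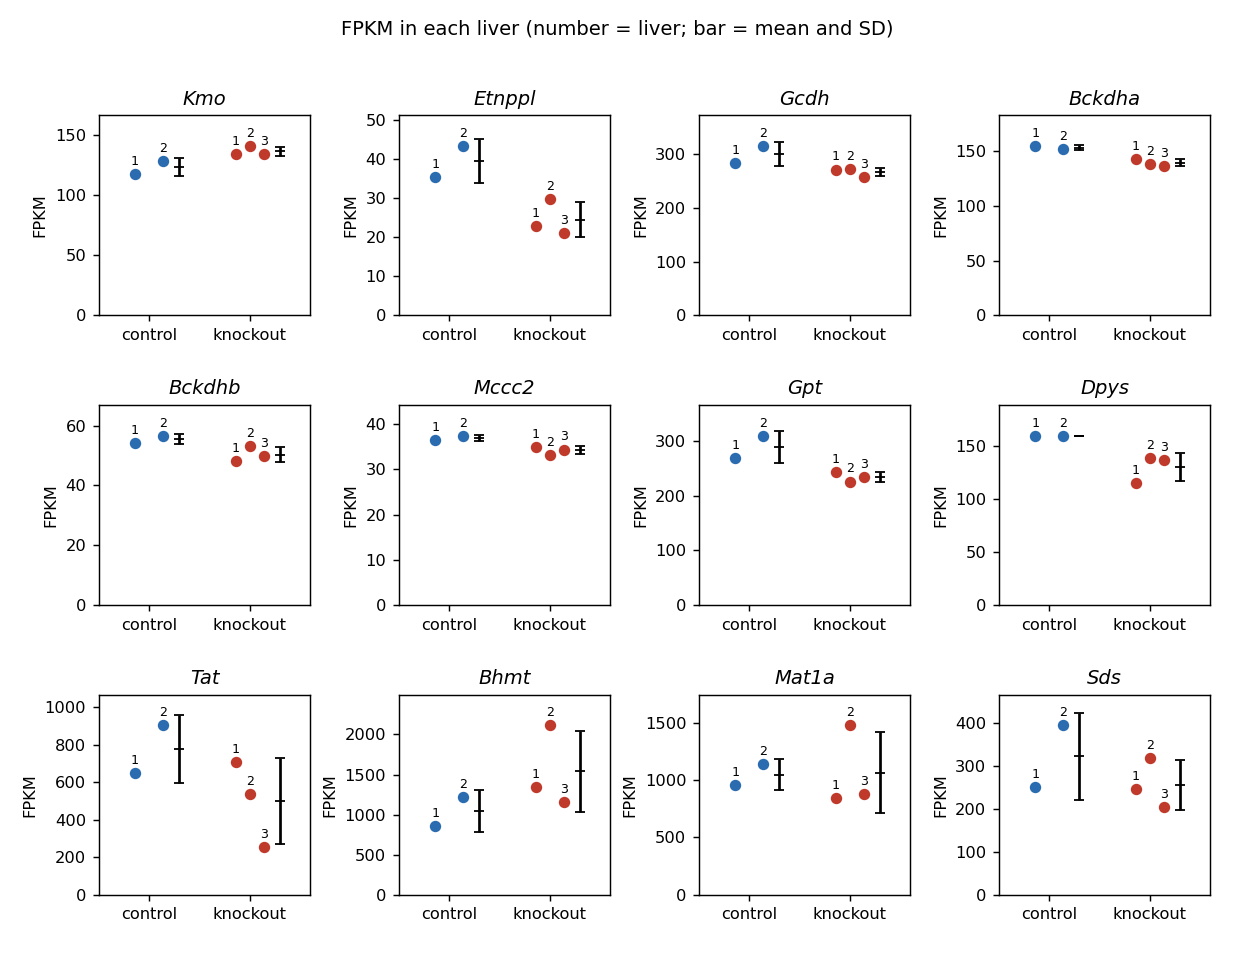
FPKM (vertical axes, from 0) in each control liver (blue) and knockout liver (red), numbered as in the labels, with the mean and SD of each group, for the 8 enzymes whose groups do not overlap and for Tat, Bhmt, Mat1a and Sds. In Etnppl, Gpt and Dpys all knockouts lie below both controls, whereas in Tat and Bhmt the knockouts spread from 255 to 708 and from 1156 to 2114 FPKM.

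The 4 tyrosine enzymes all had lower means in knockouts, with log2 fold changes between -0.73 and -0.11, but all had overlapping groups. Tat, tyrosine aminotransferase, starts the pathway and is a classical glucocorticoid target. It had 646 and 903 FPKM in the pair of controls and 708, 537 and 255 FPKM across the knockouts. Knockout 3 stood far below the other livers, at 0.377 times their median, and knockout 1 lay between the controls. The log2 fold change was -0.73, the largest in size of the 37, with an SE of 0.41 and an interval from -1.72 to 0.26 (limma adjusted p = 0.739). Without knockout 3 it was -0.31.

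Knockout 3 was also the lowest liver for each of the later steps. Hpd, hydroxyphenylpyruvate dioxygenase, had 1986 and 1645 FPKM in the control livers, against 1795, 1844 and 1353 FPKM in the knockout livers. Hgd, homogentisate dioxygenase, had 391 and 400 FPKM in the controls, while the knockouts had 406, 393 and 299 FPKM. Fah, the fumarylacetoacetase that ends the pathway, had 512 and 473 FPKM in the pair of controls and 479, 467 and 420 FPKM across the knockouts. Without knockout 3 the log2 fold changes of Hpd and Hgd turned to 0.0094 and 0.016. The summed FPKM of the 4 enzymes was 2327 in knockout 3 and between 3242 and 3535 in the others. Over all genes tested, knockout 3 was the lowest liver for 13.3%, and for 27.9% of genes with at least 100 FPKM.

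Kmo was the single enzyme higher in every knockout than in both controls. It encodes kynurenine monooxygenase of the mitochondrial outer membrane, in the pathway from tryptophan to NAD. Kmo had 117.8 and 128 FPKM in the control livers, against 134.5, 141 and 134.0 FPKM in the knockout livers, which gave a log2 fold change of 0.15 (SE 0.092, 95% interval from -0.07 up to 0.37, limma adjusted p = 0.758). With median-of-ratios scaling the groups overlapped and the value was 0.07. Tdo2, tryptophan dioxygenase, which controls entry to the pathway, had 894 and 1034 FPKM in the controls, while the knockouts had 801, 928 and 775 FPKM. Kynu, kynureninase, had 74.7 and 78.0 FPKM in the pair of controls and 94.8, 104 and 67.1 FPKM across the knockouts, so that 2 knockouts lay above both controls and the other below. Haao, which acts after kynureninase, stayed within 399 to 437 FPKM in all 5 livers.

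Among the serine enzymes, Sds, serine dehydratase, had 251 and 395 FPKM in the control livers, against 246, 319 and 205 FPKM in the knockout livers. Knockout 2 lay between the controls and the other knockouts below both, and the log2 fold change of -0.32 (SE 0.25) turned to 0.0091 without control 2. Sdsl, its paralog on chromosome 5, ranged from 9.80 to 12.3 FPKM and was the lowest of all 37 enzymes. Within each liver Sds exceeded Sdsl by 19.9 to 32.6 times. Exons of Sds overlap those of Plbd2 and Gm15690 on the other strand.

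The histidine enzymes did not all follow the same order across the livers. Hal, histidine ammonia-lyase, had 144 and 120 FPKM in the controls, while the knockouts had 149, 108 and 153 FPKM. Amdhd1, imidazolonepropionase, which lies next to Hal on chromosome 10, had 87.0 and 77.2 FPKM in the pair of controls and 89.5, 77.1 and 96.6 FPKM across the knockouts. The 5 livers fell in the same order for both genes, with knockout 2 lowest and knockout 3 highest. Uroc1, urocanase, which acts between them, went differently, with 161 and 213 FPKM in the control livers, against 140.5, 164 and 149 FPKM in the knockout livers. Its log2 fold change was -0.29 (SE 0.14, unadjusted limma p 0.0877, adjusted p 0.720), and -0.09 without control 2. Ftcd, which passes the last carbon to folate, had between 232 and 262 FPKM. For proline, Prodh ranged from 116.4 to 148 FPKM and Aldh4a1 from 110 to 124 FPKM, and neither separated the genotypes.

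The methionine enzymes held the most abundant transcripts of the set, with Gnmt, Bhmt, Ahcy and Mat1a among the 5 highest by mean FPKM. None of the 6 separated the genotypes. Mat1a, the liver S-adenosylmethionine synthase, had 954 and 1141 FPKM in the controls, while the knockouts had 845, 1476 and 873 FPKM. Gnmt, glycine methyltransferase, had 1787 and 1806 FPKM in the pair of controls and 1804, 2152 and 1618 FPKM across the knockouts. Ahcy, which splits S-adenosylhomocysteine, had 1118 and 1139 FPKM in the control livers, against 1098, 1271 and 1115 FPKM in the knockout livers. Knockout 2 was the highest liver for all 3, while knockouts 1 and 3 lay among or below the controls.

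Bhmt, betaine-homocysteine methyltransferase, which returns homocysteine to methionine, had 857 and 1225 FPKM in the controls, while the knockouts had 1345, 2114 and 1156 FPKM. Knockout 2 was again highest, and knockout 3 lay between the controls. The log2 fold change of 0.54 was the largest positive value of the 37 (SE 0.28, 95% interval -0.13 to 1.20, limma adjusted p = 0.725), and was 0.28 without knockout 2 or without control 1. Relative to Mat1a in the same liver, a ratio chosen after the values were seen, Bhmt amounted to 0.898 and 1.07 times in the control livers, against 1.59, 1.43 and 1.32 times in the knockout livers, without overlap. No test was made of this ratio. Every other ratio formed within livers had overlapping groups. That of Bhmt to Bhmt2 was 9.34 and 12.2 in the control livers, against 14.3, 21.6 and 11.9 in the knockout livers. Bhmt shares exon sequence with Gm15622 on the other strand.

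Homocysteine also leaves the cycle towards cysteine. Cbs, cystathionine beta-synthase, had 217 and 240 FPKM in the pair of controls and 199, 264 and 199 FPKM across the knockouts. Cth, cystathionine gamma-lyase, had 120 and 171 FPKM in the control livers, against 132, 158 and 114.3 FPKM in the knockout livers. Summed over the 6 methionine enzymes, knockout 2 had 7434 FPKM and the others between 5052 and 5722 FPKM. Knockout 2 was the highest liver for 5 of the 6, the exception being Cth, where control 2 was highest. Over all genes tested it was highest for 22.2%, and for 16.0% of genes with at least 100 FPKM.

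Across the 37 enzymes, control 2 was the highest liver for 15 and the lowest for 0. Knockout 3 was the lowest for 15 and knockout 2 for 12. Over all genes tested control 2 was highest for 16.8% and lowest for 23.2%. Knockouts 3 and 2 were lowest for 13.3% and 20.2%. Among genes with at least 100 FPKM these shares were 26.8%, 17.4%, 27.9% and 32.3%. Control 2 was above control 1 for 27 enzymes, a count not made over all genes. The gap between the controls was larger than the difference between genotypes for 23 enzymes, and the range of the knockouts was larger for 28. Together the 37 made up 1.62% and 1.74% of summed FPKM in controls and 1.61%, 1.91% and 1.44% in knockouts, so that knockouts 2 and 3 lay on either side of the controls. The map of deviations by liver shows these patterns.

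**Figure D4:**
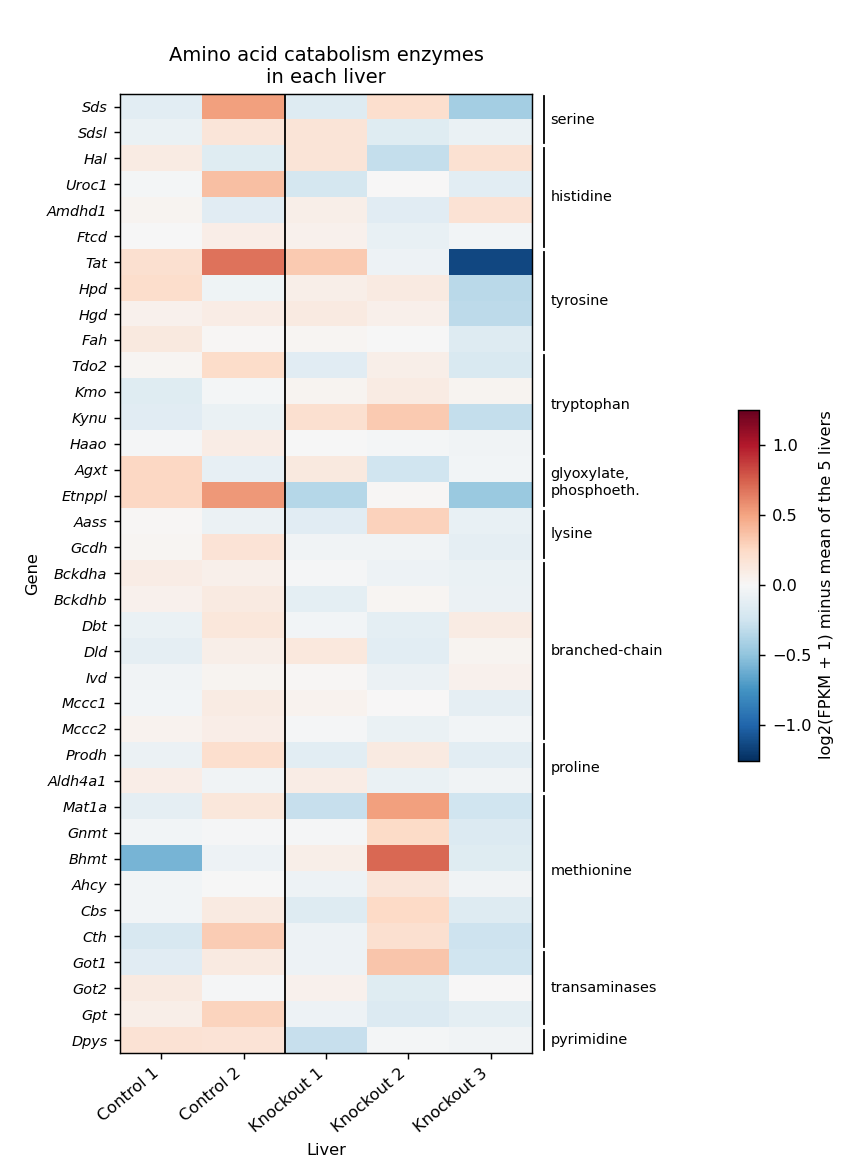
Deviation of log2(FPKM + 1) from the mean of the 5 livers (colour, red above and blue below) for each enzyme (rows, grouped by pathway) in each liver (columns). The methionine rows are red in knockout 2, where 5 of 6 are at their highest, and the tyrosine rows are blue in knockout 3, where all 4 are at their lowest.

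Other genes of the same pathways were taken from a list of 77 symbols, of which 69 rows were tested. Of these 36 were lower and 33 higher, with a median log2 fold change of -0.01. Without overlap 9 were lower (13.0%) and 7 higher (10.1%), beside 6.38% and 18.9% of all genes. At an unadjusted limma p under 0.05, 3 were lower and 1 was higher, beside 1.71% and 5.29% of all genes. None passed over all genes.

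The gene that was higher was Bcat2, the mitochondrial branched-chain aminotransferase, which is known to be low in hepatocytes. It had 11.1 and 13.0 FPKM in the controls, while the knockouts had 16.2, 20.4 and 19.5 FPKM, a log2 fold change of 0.59 (SE 0.14, unadjusted limma p 0.00409, adjusted p 0.675). Every knockout lay above both controls. Bckdk, the kinase that inhibits the ketoacid dehydrogenase, ranged from 5.04 to 7.82 FPKM with overlapping groups, as did its opposing phosphatase Ppm1k, from 8.96 to 12.9 FPKM.

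Among the lower genes were Prodh2 and Sqor. Prodh2, hydroxyproline dehydrogenase, had 181 and 203 FPKM in the control livers, against 158, 165 and 156 FPKM in the knockout livers. Sqor, which oxidises sulfide from cysteine breakdown, had 109 and 123 FPKM in the controls, while the knockouts had 90.5, 93.0 and 98.4 FPKM. In both genes all knockouts lay below both controls, with log2 fold changes of -0.26 and -0.30 and a limma adjusted p of 0.700.

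Further genes without overlap, at an unadjusted p above 0.05, included Amt, Dmgdh and Glyctk of glycine and serine breakdown (higher), Pipox (lower), Pcbd1 of pterin recycling (lower), Ido2 (higher) and Qprt (lower) of the tryptophan pathway, Aldh7a1 and Phykpl of lysine breakdown (lower), Mcee (lower) and Mtr (higher). Their log2 fold changes lay between -0.21 and 0.24. Glud1, glutamate dehydrogenase, ranged from 220.3 to 293 FPKM, and its groups overlapped.

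Genes that respond to fasting, glucagon and glucocorticoids were described beside the enzymes, since several enzymes belong to that programme. Of 12 tested, 8 were lower and 4 higher, 5 lower without overlap (41.7%, beside 6.38% of all genes and 16.9% of those with at least 100 FPKM) and 2 higher without overlap (beside 18.9% and 6.67%). The median was -0.23, and none passed over all genes. Tsc22d3, a glucocorticoid-induced gene also called Gilz, had 97.3 and 121 FPKM in the control livers, against 74.3, 45.1 and 31.0 FPKM in the knockout livers (log2 fold change -1.19, SE 0.34, limma adjusted p = 0.700). G6pc1, the last enzyme of glucose production, had 166.5 and 245 FPKM in the control livers, against 89.0, 54.1 and 33.9 FPKM in the knockout livers (log2 fold change -1.86, SE 0.38, limma adjusted p = 0.675). In both genes every knockout lay below both controls. Cpt1a and Sesn1 went the other way, at 0.34 each. Knockout 3, the lowest liver for Tat, was the lowest for 6 of these 12 genes, and control 2 for 4. Over all genes tested these livers were lowest for 13.3% and 23.2%, and for 27.9% and 17.4% of genes with at least 100 FPKM. Any link to the Tat value was not tested. The feeding-induced genes ran both ways, 4 of 7 tested being lower and 3 higher, with log2 fold changes from -0.60 up to 1.16. Without overlap 2 of the feeding-induced genes were lower and 0 higher, beside 6.38% and 18.9% of all genes. Of these, Pklr, liver pyruvate kinase, had 326 and 379 FPKM in the controls, while the knockouts had 233, 237 and 277 FPKM (log2 fold change -0.50, limma adjusted p = 0.675).

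Of 14 regulators of amino acid breakdown, 1 was lower and 1 higher without overlap, where 6.38% and 18.9% of all genes were. Klf15, a transcription factor known to act on genes of amino acid breakdown, had 91.7 and 107 FPKM in the pair of controls and 83.8, 84.7 and 50.3 FPKM across the knockouts (log2 fold change -0.48, SE 0.24, limma adjusted p = 0.722). Cebpa had 161 and 149 FPKM in the control livers, against 172, 209 and 166 FPKM in the knockout livers. The glucocorticoid receptor Nr3c1, from 11.7 to 14.7 FPKM, and the glucagon receptor Gcgr, from 141 to 161 FPKM, had overlapping groups.

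Zonation markers outside the set gave no common direction. Of 12 periportal genes tested 6 were lower and 6 higher, with a median of 0.01. Ass1 and Pck1 were lower and Cps1 and Cdh1 higher without overlap. Of 11 pericentral genes tested 4 were lower and 7 higher, with a median of 0.15. Rgn alone was lower without overlap, and 0 were higher. Over all genes tested 64.2% were higher, 6.38% were lower without overlap and 18.9% higher without overlap. Among genes with at least 100 FPKM 16.9% were lower and 6.67% higher without overlap. The summed periportal list was 7153 and 7298 FPKM in the controls, while the knockouts had 7314, 7090 and 6749 FPKM.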

How the data were processed

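RNA of 5 mouse livers was sequenced as paired-end libraries, per the labels' protocols. The deposited values are FPKM per gene symbol, made by the authors. Per the submitters' processing notes HISAT2, StringTie and DESeq2 were used with the mm10 build; their versions and roles, the annotation and the strand setting are not given in the sources used here. The 2 deposited tables held identical values in all 33589 rows, and 220 rows repeat an earlier symbol. FPKM carry no counts, so depth is unknown.

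Groups came from the labels, which do not say that each library is a separate animal, so p-values measure the spread between these samples. Genes with a mean of at least 1 FPKM (10820) were tested with limma 3.58.1 in R 4.3.3 (trended prior, two-sided, Benjamini-Hochberg threshold 0.05) on log2(FPKM + 1) with genotype as the only term. The procedure was tested on simulated data whose changes were larger than that of any enzyme here, so differences as small as these were not covered. Heg1 lay below the filter and was given as values. Positions are from GENCODE M21 (GRCm38, also called mm10); exons of 6 of the 37 enzymes overlap another gene. The enzymes, lists and tests were chosen with earlier results of these data known. The rule names all enzymes, with values in all livers for those without overlap or with unadjusted p under 0.05, and up to 4 genes without overlap per other list; Bckdk, Ppm1k, Glud1, Nr3c1, Gcgr, Alb, Apoa1, Cela1, Ass1, Pck1, Cps1, Cdh1, Rgn and Asns were named outside it, after their values were seen. Some genes of these lists are counted but not reported here by name. G6pc was matched as G6pc1 and the transferrin gene as Trf. Alternatives covered the pseudocount, filter, scaling, library weights, replicate number and each library. In lists of other cell types, lymphocyte markers all lay below the filter. Without overlap, in either direction, there were 0 to 2 genes in each of the hepatocyte, sinusoidal, stellate, cholangiocyte, neutrophil and erythrocyte lists. The share over all genes tested was 25.3%.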

Additional observations from a re-analysis of the deposited data

How the results depend on the processing

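No enzyme passed in any of the 14 alternatives; the smallest adjusted p was 0.148, for Bhmt with the replicate block. Of the 37 log2 fold changes 18 kept their sign throughout, among them those of the 8 enzymes without overlap. For these 8 that result carries little information. Where groups do not overlap, only a change of scaling could have reversed the sign. Over all genes 41 passed with no filter on low values, 5 with the replicate block and 0 to 1 when 1 liver was left out; the cause was not tested.

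The labels number livers within each genotype. Only numbers 1 and 2 recur in both groups, and deviations from the group means correlated at 0.227 and 0.196 across genes for these numbers. The labels name no shared litter, batch or day, and with only 2 such numbers these values do not settle whether the livers are paired. The replicate block in effect drops knockout 3. With it Hal was -0.046, Hpd 0.0094, Hgd 0.016, Ivd -0.026, Mat1a 0.098, Cbs 0.0031 and Cth 0.011, signs opposite to those reported.

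With median-of-ratios scaling 15 enzymes were lower and 0 higher without overlap, beside 13.1% and 11% of all genes. The median of the enzymes was -0.14, while the median over all genes tested moved from 0.06 to -0.007. Hal (-0.036), Aass (-0.032), Dld (-0.049), Ivd (-0.076), Gnmt (-0.040), Ahcy (-0.041) and Got1 (-0.054) turned negative. With quantile normalization Ivd was -0.0016 and Gnmt -0.00074. Nominal calls over all genes also depended on scaling, with 185 lower and 572 higher as deposited, 392 and 273 with median-of-ratios scaling and 321 and 279 with quantile normalization.

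Leaving out each liver in turn gave 7 to 17 enzymes lower and 1 to 3 higher without overlap. Over all genes, 10.3% to 19.5% were then lower and 25.8% to 37.4% higher without overlap. The medians of the enzymes ran from -0.12 to -0.013. Ranges that crossed 0 were those of Aass from -0.0904 to 0.125, Agxt from -0.314 to 0.0468, Ahcy from -0.0288 to 0.0766, Aldh4a1 from -0.101 to 0.0266, Cbs from -0.198 to 0.0105, Cth from -0.356 to 0.156, Dbt from -0.155 to 0.0709, Dld from -0.0623 to 0.12, Gnmt from -0.0722 to 0.133, Got1 from -0.143 to 0.155, Hal from -0.0877 to 0.201, Hgd from -0.205 to 0.0159, Hpd from -0.269 to 0.00938, Ivd from -0.0372 to 0.0412, Mat1a from -0.28 to 0.122, Mccc1 from -0.124 to 0.0157, Prodh from -0.262 to 0.0222, Sds from -0.644 to 0.00908 and Sdsl from -0.18 to 0.0597. Only 5 libraries and an unknown depth limit the precision of every value.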

Other observations

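Amino acid transporters of liver, not described above, were higher in knockouts in 11 of 13 tested genes, where 64.2% of all genes were higher, with a median log2 fold change of 0.09 beside 0.06 over all genes, and none passed over all genes (limma). Without overlap 3 were higher and 1 lower, beside 18.9% and 6.38% of all genes. Slc38a2, a sodium-coupled neutral amino acid transporter, had 32.1 and 31.9 FPKM in the pair of controls and 25, 27.7 and 23.8 FPKM across the knockouts, with a log2 fold change of -0.32 (SE 0.11, unadjusted limma p 0.022, adjusted p 0.700). Slc25a44, a mitochondrial carrier of branched-chain amino acids, had 22.5 and 23.2 FPKM in the control livers, against 28.03, 25.5 and 25.9 FPKM in the knockout livers, with a log2 fold change of 0.20 (limma adjusted p = 0.718). Slc38a3, the abundant glutamine transporter, had 870.1 and 957 FPKM in the controls, while the knockouts had 972, 986 and 959 FPKM.

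Of the 13 genes listed for the amino acid stress response driven by ATF4, 9 were tested. Of these 3 were lower and 6 higher, where 64.2% of all genes were higher. The gene with the largest difference in size and the list's only unadjusted p under 0.05 was Ddit4, named after its values were seen, with 8.01 and 13.1 FPKM in the control livers, against 4.21, 8.23 and 4.64 FPKM in the knockout livers (log2 fold change -0.80, SE 0.30, unadjusted limma p 0.0337, adjusted p 0.700). Knockout 2 lay between the controls, so its groups overlapped. Without overlap 1 of the 9 was higher, Ddit3 (log2 fold change 0.27), and 1 lower, Sesn2 (-0.31), beside 18.9% and 6.38% of all genes. Their limma adjusted p was 0.716 and 0.776. Asns, asparagine synthetase, lay below the filter, with 0.50 and 0.57 FPKM in the pair of controls and 0.57, 1.24 and 0.66 FPKM across the knockouts.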
